A study of Mus musculus with 4 samples.

Results

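A group of 9 genes of blood vessel growth and vessel wall structure was followed across the cell types of the mouse pituitary. They encode 4 secreted ligands (Vegfa, Pgf, Angpt1 and Angpt2), 4 receptors (Kdr, Flt1, Nrp1 and Tek) and Plvap, a structural protein of the capillary wall. The genes were chosen by name, and each matched 1 of the 55357 genes in the deposited gene table. The cells came from whole pituitaries of male mice in 4 libraries, of which 2 were of high-fat diet (HFD) animals and 2 of normal diet (ND) animals. Mice entered the study at an age of 4 weeks, were fed for 12 weeks, and 3 glands were pooled in each library. The labels also give every library the cell type gonadotroph and the cell line Lbt2, although tissue and protocol are those of the whole gland, and the data held all endocrine cell types. Every library is shared in 1 matrix whose barcodes carry set numbers 1 to 4 that no source ties to a library, so HFD and ND cells cannot be told apart and no diet comparison is given.

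VEGF-A is the main growth and survival factor of endothelial cells. It signals through the receptor KDR (VEGFR2), while FLT1 (VEGFR1) binds VEGF-A and placental growth factor tightly and, in a soluble form, sequesters them. Neuropilin 1 is a co-receptor for VEGF-A and for semaphorins. Angiopoietin 1 activates the receptor TEK (TIE2) and stabilises vessels, and angiopoietin 2, stored in endothelial cells, mostly opposes it. PLVAP forms the diaphragms of fenestrae, the pores through which hormones enter the blood of the anterior pituitary and neurohypophysis.

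The matrix held 346690898 unique molecular identifiers (UMIs, one per captured RNA molecule) in 40406 barcodes, with a median of 7167 to 8070.5 UMIs per barcode over the 4 sets. After filters on low quality and likely doublets, 36651 cells remained. Cells were classed by the share of their UMIs in the hormone genes and, for non-endocrine types, by lists of marker genes that include none of the 9 genes. At least 50 cells were found in 13 classes: 6 of hormone cells, from 458 thyrotroph-like to 14383 somatotroph-like cells, and 7 others, among them 678 endothelial-like, 332 fibroblast-like and 158 pituicyte-like cells. The mural class (pericytes and smooth muscle) had 12 cells and is left out of the rankings. In the endothelial-like class all 12 of its markers, among them Pecam1 and Cdh5, stood at least 1 log2 unit above the other cells and were found in at least 10% of the cells, as did 5 of 8 pituicyte markers, 8 of 9 fibroblast markers, all 6 gonadotroph markers and all 4 lactotroph markers in their classes. The non-endocrine classes were set with these same lists, so their counts are no independent check. Among the gonadotroph and lactotroph markers, Fshb, Lhb and Prl also set the classes. A further 156 barcode sequences occurred in 2 or more sets, and they were counted as separate cells. Levels are CPM, the UMIs of a gene per 1000000 UMIs of the summed class, given over all sets and for each set. The sets are not replicates of a known group, so no test was made, and intervals are 95% exact Poisson (levels) or Clopper-Pearson (shares of cells) intervals that cover counting error only.

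Each of 8 genes led in a single class in every set with at least 20 cells of that class, and 6 of them led in the endothelial-like class: the receptors Kdr, Flt1, Nrp1 and Tek, the ligand Angpt2, and Plvap. Of all 14223 genes tested, 5.24% led in endothelial-like cells in every set and 41.0% did so in any 1 class. Vegfa led in pituicyte-like cells, with gonadotroph-like cells next, and Angpt1 led in lactotroph-like cells. Genes that led in every set made up 4.93% of those tested for pituicyte-like, 3.54% for gonadotroph-like and 1.36% for lactotroph-like cells. Pgf was the exception, with its highest pooled level in fibroblast-like cells (3.63% of genes tested led there in every set) but with set 1 led by another class. Across the remaining classes, genes leading in every set made up 4.52% of those tested for stem or folliculostellate-like, 3.82% for macrophage or microglia-like, 3.45% for thyrotroph-like, 3.34% for corticotroph-like, 3.14% for T or NK cell-like, 1.72% for melanotroph-like, 1.64% for B cell-like and 0.647% for somatotroph-like cells.

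**Figure D1:**
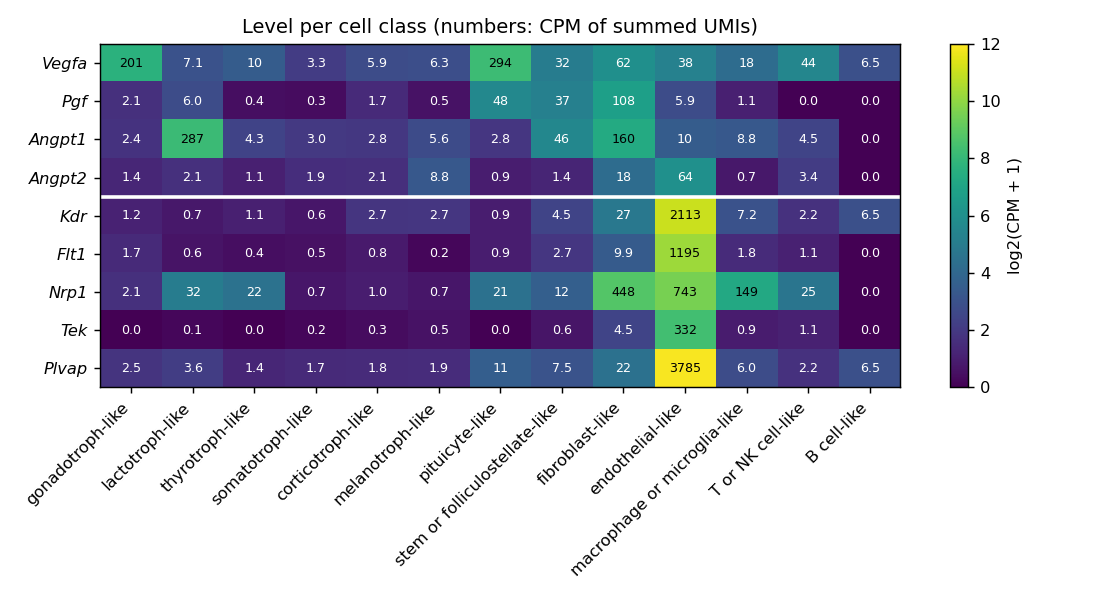
Level of the 4 ligands (upper block) and of the 4 receptors and Plvap (lower block) in 13 cell classes. The number in each cell is CPM of the UMIs summed over all 4 sets and the colour is log2(CPM + 1), to be read along a row, since UMI counts of different genes are not levels per transcript length; the endothelial-like column holds 2113 CPM of Kdr and 3785 CPM of Plvap, while Vegfa stands out in the gonadotroph-like and pituicyte-like columns and Angpt1 in the lactotroph-like column.

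Vegfa (ENSMUSG00000023951), the VEGF-A gene, was high in 1 of the 6 hormone classes. Pituicyte-like cells, which carry markers of the glia of the posterior lobe, had 354, 286 and 224 CPM in sets 1, 3 and 4, and set 2 held 4 such cells, too few for a value. Gonadotroph-like cells, the source of follicle-stimulating and luteinising hormone, had 219, 195, 214 and 200.02 CPM in sets 1 to 4. Every pituicyte-like set with enough cells lay above every gonadotroph-like set. The pooled levels were 294 CPM in pituicyte-like cells (interval 263 to 328, 320 UMIs) and 201 CPM in gonadotroph-like cells (192 to 211, 1695 UMIs), a ratio of 1.46 (1.296 to 1.65). With hormone genes left out of the library sizes, the levels were 298 CPM in pituicyte-like and 232 CPM in gonadotroph-like cells, and in set 4 the order turned, with 227 CPM in pituicyte-like and 229.7 CPM in gonadotroph-like cells.

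The other hormone classes were far below. Vegfa stood at 7.10 CPM in lactotroph-like cells, 5.94 CPM in corticotroph-like cells and 3.34 CPM in somatotroph-like cells, the lowest of the 13 classes. A Vegfa UMI was found in 72.4% of gonadotroph-like cells (68.8 to 75.7) at a median of 14057 UMIs per cell, against 3.05% of somatotroph-like cells at a median of 9615 UMIs. After thinning each cell to 1000 UMIs, the shares were 22.0% in pituicyte-like cells and 18.0% in gonadotroph-like cells, against 0.476% in somatotroph-like cells.

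Between these extremes lay fibroblast-like cells at 62.0 CPM, the T or NK cell-like class at 43.8 CPM, endothelial-like cells at 38.2 CPM and stem or folliculostellate-like cells at 32.0 CPM, and the intervals of neighbours in this order overlapped. The T or NK cell-like level came mostly from set 4, at 90.4 CPM, against 17.3 to 29.5 CPM in the other sets. Gonadotroph-like cells, 2.19% of the cells in the 13 classes, held 44.9% of the Vegfa UMIs found there, or 34.5% of those of all kept cells. Pituicyte-like cells held 8.49% within the classes, being fewer (0.514% of the cells) and shallower, with a median of 7141.5 UMIs against 14057. Somatotroph-like cells, with 46.8% of the cells, held 12.9%.

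Within the gonadotroph-like class, Vegfa was set against the cells' share of Fshb and Lhb, the genes of the hormone-specific beta subunits, with hormone genes left out of the library sizes. The level was 153 CPM (125 to 185) in cells with 0.1% to 0.5% of their UMIs in these genes, 226 CPM (206 to 246) at 0.5% to 1%, 253 CPM (236 to 271) at 1% to 1.5% and 232 CPM (205 to 262) above that. The lowest bin was thus below the other 3, and it also held shallower cells, with a median of 3734 UMIs against 13841.5 to 15829. The part of depth in that step was not tested. In cells of no class, those with 0.02% to 0.1% of UMIs in Fshb and Lhb had 75.7 CPM of Vegfa, against 15.4 CPM in those with less.

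**Figure D2:**
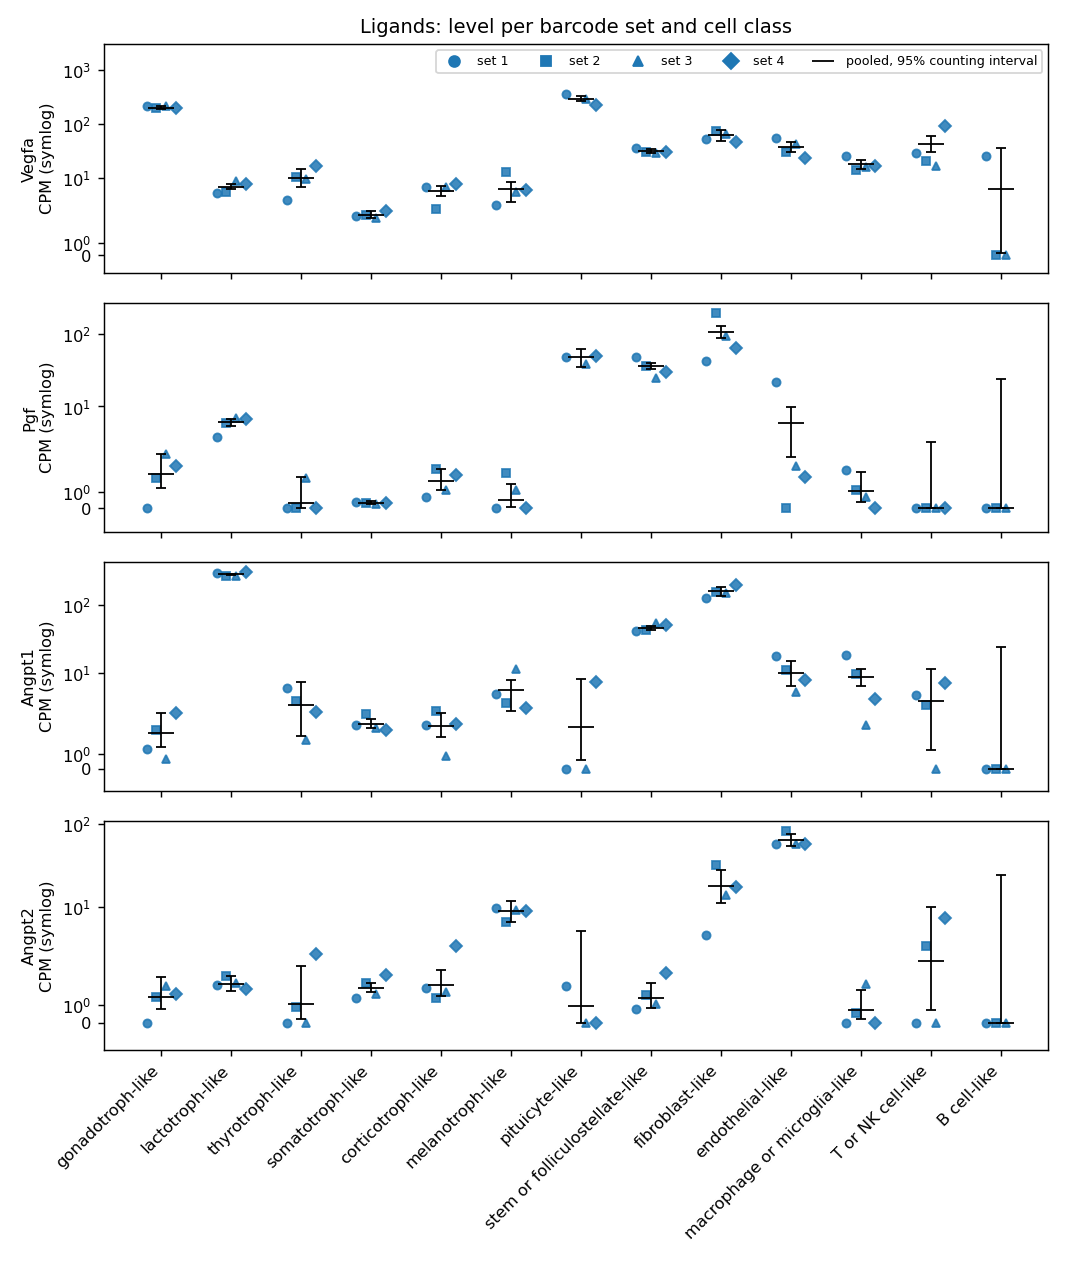
Level of the 4 ligand genes in 13 cell classes, in CPM on a symmetric log axis that is linear below 5. Blue symbols are sets with at least 20 cells of a class, black bars are the pooled level with its 95% counting interval; Vegfa sets lie near 200 CPM in gonadotroph-like cells and under 10 CPM in somatotroph-like and lactotroph-like cells, and Angpt1 sets run from 267 to 310 CPM in lactotroph-like cells.

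Angpt1 (ENSMUSG00000022309), the gene of the TEK agonist angiopoietin 1, was a transcript of the prolactin cells. Lactotroph-like cells had 299.7, 267, 272 and 310.4 CPM in sets 1 to 4, and fibroblast-like cells had 129, 157, 153 and 202 CPM. The sets of the 2 classes did not overlap, and the pooled ratio was 1.79 (1.55 to 2.08), from 287 CPM against 160.1 CPM. Since hormone transcripts make up 24.0% of the UMIs of lactotroph-like cells and 2.46% of those of fibroblast-like cells, leaving them out of the library sizes widened the gap to 377 against 164 CPM. Lactotroph-like cells held 91.6% of the Angpt1 UMIs of the 13 classes with 24.3% of the cells, or 75.1% of those of all kept cells.

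An Angpt1 UMI was present in 73.9% of lactotroph-like cells (72.9 to 74.9) at a median of 7074 UMIs, against 2.40% of somatotroph-like cells, which are deeper. After thinning to 1000 UMIs the shares were 25.2% in lactotroph-like and 0.284% in somatotroph-like cells. Stem or folliculostellate-like cells followed fibroblast-like cells at 46.2 CPM, and every other class was at 10.1 CPM or below. The level was lowest in the cells with the highest prolactin share. With hormone genes left out, it was 390.1 CPM in cells with 3% to 10% of UMIs from Prl, 391 CPM at 10% to 20%, 388 CPM at 20% to 30% and 326 CPM (314 to 339) above 30%. The intervals of the first 3 bins overlapped, and the last lay below them. It was also the lowest bin in each of the 4 sets, but in set 2 it nearly equalled the first bin, at 315.0 against 315.8 CPM.

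**Figure D3:**
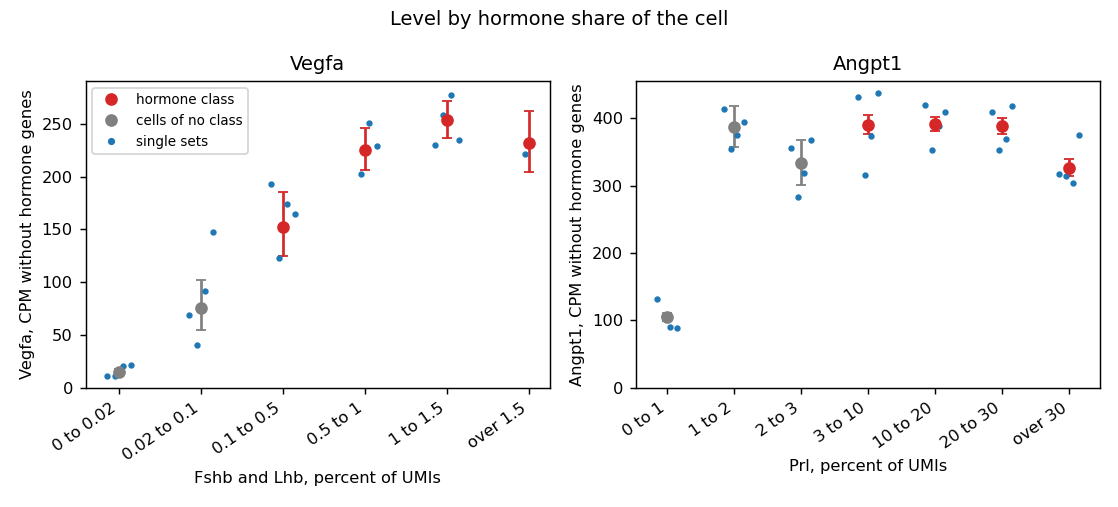
Vegfa by the cells' share of Fshb and Lhb UMIs (left) and Angpt1 by their share of Prl UMIs (right), in CPM with the 7 hormone genes left out of the library size. Red points are the hormone class, grey points cells of no class, bars 95% counting intervals, and small blue points single sets with at least 20 cells; Vegfa is 153 CPM in the lowest gonadotroph-like bin and 226 to 253 CPM in the others, and Angpt1 is 388 to 391 CPM in the first 3 lactotroph-like bins and 326 CPM in the last.

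Angpt2 (ENSMUSG00000031465), the gene of the TEK antagonist, had its highest level in endothelial-like cells, although they did not hold most of its UMIs. These had 57.6, 83.5, 57.3 and 57.3 CPM in sets 1 to 4, against 4.80, 32.1, 13.9 and 17.2 CPM in fibroblast-like cells. No set of the fibroblast-like class reached the lowest endothelial-like set, and the pooled ratio was 3.57 (2.24 to 5.69), from 64.2 against 18.0 CPM. Melanotroph-like cells came next at 8.82 CPM, from 6.53 to 9.51 CPM over the sets. The other 5 hormone classes had 1.06 to 2.15 CPM. Of the Angpt2 UMIs within the 13 classes, endothelial-like cells held 21.9%, against 40.2% in the far more numerous somatotroph-like cells and 16.5% in lactotroph-like cells. The 12 mural cells had 3 Angpt2 UMIs, or 87.9 CPM (18.1 to 257), and their level cannot be placed relative to the endothelial-like level. In the annotation of GENCODE vM21 the gene lies on the strand opposite to Mcph1 and overlaps it, and Angpt1 likewise overlaps the antisense gene Gm17473. Reads of such pairs are separable only by strand, and the strand setting of the counting is not given in the sources used here.

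Pgf (ENSMUSG00000004791), the placental growth factor gene, was highest in fibroblast-like cells when pooled, with sets that varied widely. Fibroblast-like cells had 43.2, 199, 94.7 and 64.4 CPM in sets 1 to 4, with set 2 far above the others. Pituicyte-like cells had 49.1, 39.2 and 49.7 CPM in sets 1, 3 and 4, and stem or folliculostellate-like cells had 48.9, 36.7, 24.6 and 29.9 CPM. In set 1 both exceeded fibroblast-like cells. The pooled fibroblast-like level was 108 CPM (89.5 to 129), and 72.5 CPM without set 2. By number of UMIs the stem or folliculostellate-like cells held the most, 43.6% of those in the 13 classes, and lactotroph-like cells 29.5% at a level of 6.01 CPM. Of the 14 Pgf UMIs in endothelial-like cells, which came from 4 cells, most were in set 1, at 21.9 CPM there against 0 to 2.67 CPM in the other sets.

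**Figure D4:**
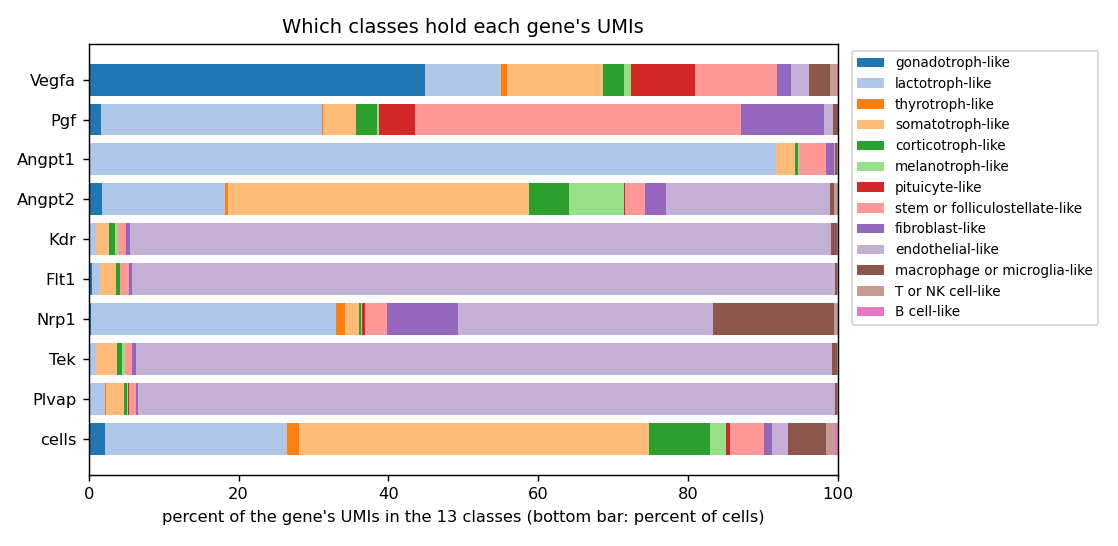
Share of each gene's UMIs within the 13 cell classes, in percent, that lies in each class, with the share of their cells as the bottom bar; UMIs outside the 13 classes are not counted. Of the UMIs within these classes, gonadotroph-like cells hold 44.9% for Vegfa and lactotroph-like cells 91.6% for Angpt1, while endothelial-like cells, 2.20% of the cells, hold 92.9% to 93.9% for Kdr, Flt1, Tek and Plvap (44.8% to 48.2% over all kept cells).

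Kdr (ENSMUSG00000062960), the gene of the main VEGF-A signalling receptor, was nearly confined to endothelial-like cells among the 13 classes. The level there was 1981, 2089, 2066 and 2343 CPM in sets 1 to 4, against 28.8, 16.0, 13.9 and 60.1 CPM in fibroblast-like cells, the next class. The pooled values were 2113 CPM (2055 to 2172) against 27.0 CPM (18.2 to 38.5), a ratio of 78.3 (54.7 to 112). The 6 hormone classes had 0.634 to 2.71 CPM. Outside the 13 classes, the 12 mural cells had 17 Kdr UMIs in 3 cells, or 498 CPM (290 to 798). The part of endothelial RNA in that value was not tested. A Kdr UMI was found in 93.8% of endothelial-like cells at a median of 2648.5 UMIs, against 0.605% of the deeper somatotroph-like cells.

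Flt1 (ENSMUSG00000029648), which encodes the high-affinity VEGF-A and placental growth factor receptor, was likewise highest in endothelial-like cells, with fibroblast-like cells next when pooled. Endothelial-like cells had 1258, 1218, 1046 and 1326 CPM in sets 1 to 4, against 9.59, 0, 8.36 and 25.7 CPM in fibroblast-like cells. The pooled values were 1195 CPM (1152 to 1240) against 9.89 CPM (4.94 to 17.7, 11 UMIs), a ratio of 121 (66.8 to 218). UMIs were counted per gene, so the full-length receptor and its soluble form are not separated.

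Tek (ENSMUSG00000006386), the angiopoietin receptor gene, had 362, 385, 289 and 298 CPM in endothelial-like cells of sets 1 to 4, against 0 to 8.58 CPM in fibroblast-like cells. The pooled ratio of 332 to 4.496 CPM was 73.7 (30.6 to 178) and rested on 5 fibroblast-like UMIs. No Tek UMI was found in gonadotroph-like, thyrotroph-like, pituicyte-like or B cell-like cells. With 3 counts taken as the limit that a count of 0 allows, in place of the interval used for other counts, this allows up to 0.357 CPM in gonadotroph-like and 2.76 CPM in pituicyte-like cells, and 19.5 CPM in the B cell-like class with its few UMIs. Lactotroph-like cells, the class with the highest Angpt1, had 0.149 CPM of Tek.

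Plvap (ENSMUSG00000034845), the gene of the fenestral diaphragm protein, had 9019 UMIs in endothelial-like cells. The level was 3393, 4164, 3623 and 3949.7 CPM in sets 1 to 4, against 19.2, 9.63, 30.6 and 25.7 CPM in fibroblast-like cells, and the pooled ratio was 175 (118 to 262). A Plvap UMI was present in 98.4% of endothelial-like cells, against 1.61% of somatotroph-like cells. After thinning to 1000 UMIs these shares were 95.1% and 0.206%. In the annotation Plvap overlaps Gtpbp3 on the opposite strand.

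Nrp1 (ENSMUSG00000025810), the neuropilin 1 gene, was shared by several non-endocrine classes. Endothelial-like cells had 733, 743, 754 and 737 CPM in sets 1 to 4, fibroblast-like cells 384, 382, 499 and 515 CPM, and macrophage or microglia-like cells 148, 132, 169 and 149 CPM. The sets of these 3 classes did not overlap. The pooled ratio of endothelial-like to fibroblast-like cells was 1.66 (1.503 to 1.83). In the 12 mural cells, outside the 13 classes, 20 Nrp1 UMIs in 9 cells gave 586 CPM (358 to 905). That level cannot be placed relative to endothelial-like or fibroblast-like cells. Among hormone cells Nrp1 was found at 31.7 CPM (30.2 to 33.3) in lactotroph-like and 22.3 CPM in thyrotroph-like cells, and at 0.661 CPM in the somatotroph-like class, and the order in each set was the same. Of the Nrp1 UMIs within the 13 classes, lactotroph-like cells held 32.6% and endothelial-like cells 34.0%. Over all kept cells these shares were 20.4% and 21.2%, as 3135 Nrp1 UMIs lay outside the 13 classes.

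**Figure D5:**
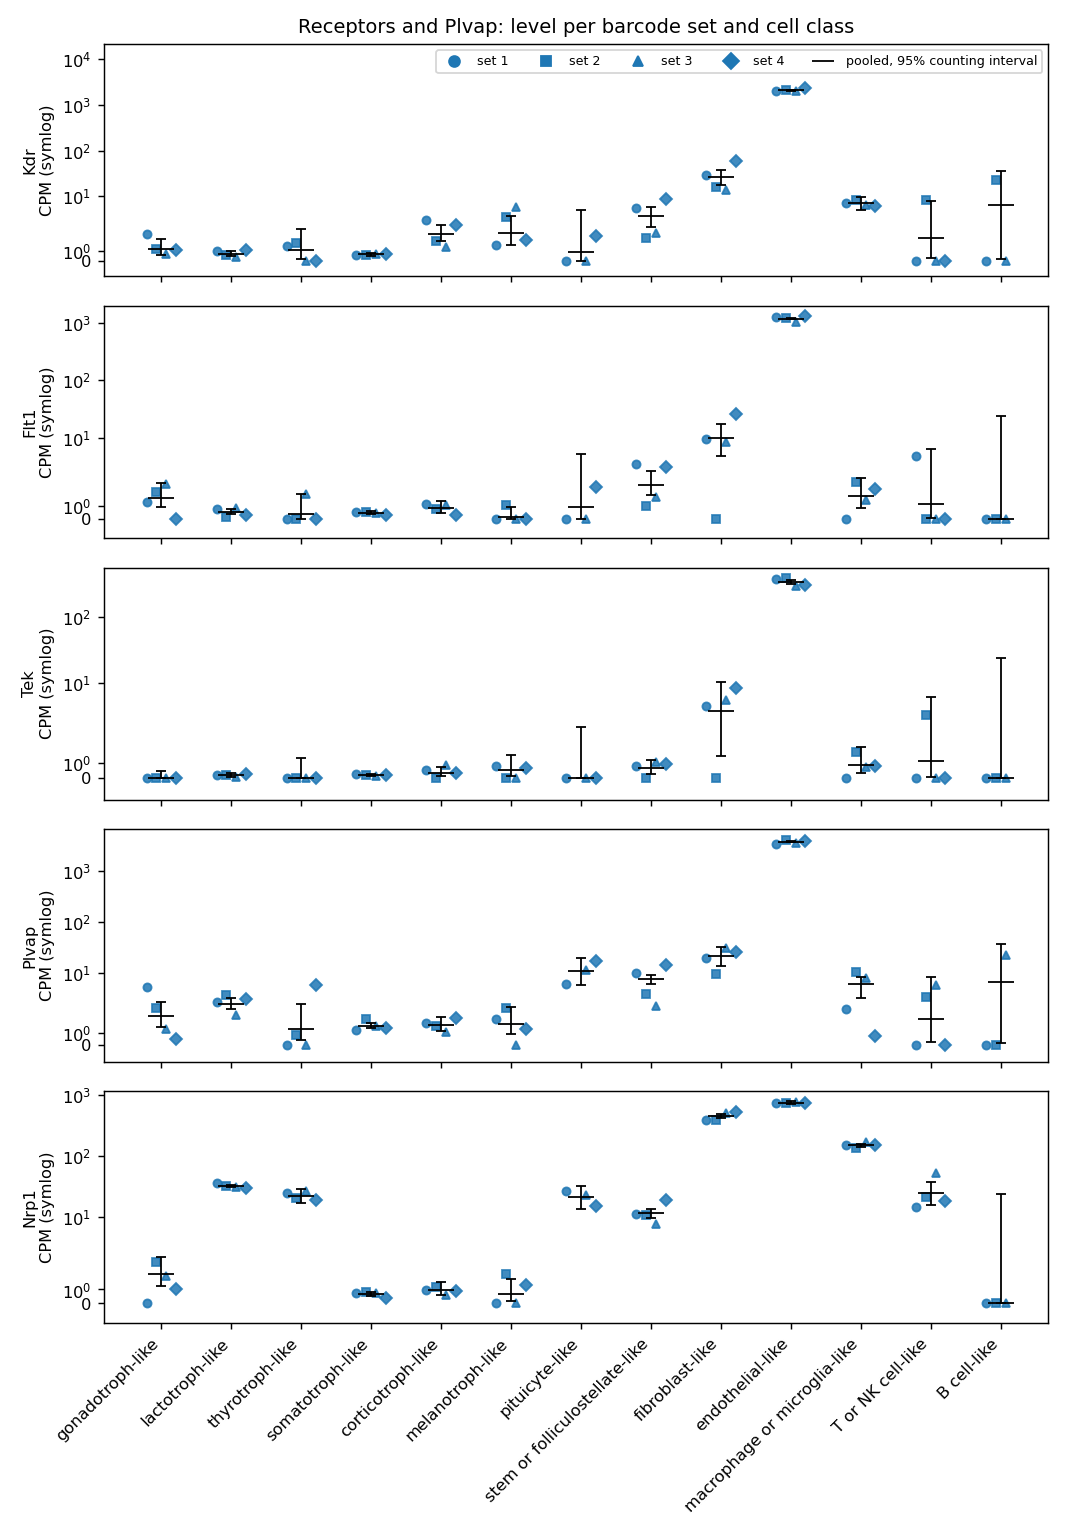
Level of Kdr, Flt1, Tek, Plvap and Nrp1 in 13 cell classes, in CPM on a symmetric log axis that is linear below 5. Blue symbols are sets with at least 20 cells of a class and black bars the pooled level with its 95% counting interval; all 4 endothelial-like sets stand above every other class for each gene, and Nrp1 is also at 382 to 515 CPM in fibroblast-like and 132 to 169 CPM in macrophage or microglia-like sets.

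The receptor levels depended on how strictly endothelial-like cells were taken. With classes taken from Leiden clusters, where cells carrying markers of a further type stay in, the endothelial-like class grew to 1275 cells and its levels were 1215 CPM of Kdr, 654 CPM of Flt1, 482 CPM of Nrp1, 195 CPM of Tek, 38.2 CPM of Angpt2 and 2057 CPM of Plvap. Of the 450 cells left out because markers of 2 non-endocrine types came close, 307 lay in the endothelial clusters, and these 450 cells had 796 CPM of Kdr and 1265 CPM of Plvap. Over all kept cells, endothelial-like cells held 46.0% of the Kdr and 48.2% of the Plvap UMIs, since 5558 Kdr and 9028 Plvap UMIs lay outside the 13 classes, against 5374 and 9693 within them. Of those outside, 3439 Kdr and 5466 Plvap UMIs were in the 450 cells. Endothelial-like cells had 12 of 12 endothelial markers with a summed level of 6649 CPM (6360 to 7073 over the sets), and 13 of 13 mural markers at 740 CPM (572 to 862). The part of mural RNA in these values was not tested.

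Many single endothelial-like cells held UMIs of several of these genes. Whether the genes occurred together more often than their single shares give was not tested. Of 468 endothelial-like cells with at least 2000 UMIs, all had a Plvap UMI, 98.3% a Kdr, 91.7% an Flt1, 86.1% an Nrp1 and 64.5% a Tek UMI (60.0 to 68.9). All of Kdr, Flt1, Tek and Plvap were found in 59.8% of these cells (55.2 to 64.3), and no cell lacked all of them, which allows a share of up to 0.641% by the same 3-count limit. Angpt2 was found in 20.3% and Vegfa in 13.7% of the cells.

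Endothelial-like cells were also split by markers of endothelial subtypes, and the direction of Flt1 differed between the lists. The 34 cells with at least 2 of 7 arterial markers had 1616 CPM of Flt1 (1438 to 1811), against 1108 CPM (1044 to 1175) in the 383 cells with none, and 16.3 CPM of Angpt2 from 3 UMIs against 51.2 CPM. The 261 cells with 1 arterial marker had 82.8 CPM of Angpt2, above both, so it followed no order with the number of markers. In cells with at least 2 markers of the other 4 lists Flt1 was lower than in cells with none, at 1087 against 1353 CPM for the venous, 1031 against 1199 CPM for the tip, 1072 against 1227 CPM for the lymphatic and 853 against 1228 CPM for the blood-brain barrier list. The intervals of the tip and lymphatic pairs overlapped. Kdr was 2123 CPM (1917 to 2344) in the same arterial-marker cells against 1958 CPM (1873 to 2046) in those with none. These 2 intervals overlapped. In 66 cells with at least 2 of 5 tip cell markers, which mark the leading cells of sprouts, Angpt2 was 89.5 CPM (63.0 to 123) against 52.6 CPM (39.2 to 69.2) in the 382 cells with none, and Plvap was 3362 against 4062 CPM. Of these tip markers, Esm1 was highest in melanotroph-like, Apln in stem or folliculostellate-like and Cxcr4 in B cell-like cells. Dll4, also on the tip list, led in endothelial-like cells, at 144 CPM against 3.68 CPM in pituicyte-like cells. Since some of the tip markers were highest elsewhere, the 66 cells are not shown to be tip cells. Cells with several markers were deeper in each list, with medians of 5694.5 against 2195 UMIs for the arterial and 5396.5 against 2144.5 UMIs for the tip list, and the part of depth in these gaps was not tested. In 30 cells with at least 2 of 6 markers of blood-brain barrier endothelium, a type without fenestrae, Plvap was 3682 CPM (3441 to 3935). It was 3964 CPM (3860.01 to 4069) in the 490 cells with none, and the medians were 7457 and 2292 UMIs. The list includes Slc2a1 and Mfsd2a, which were highest in pituicyte-like cells, Slc2a1 only narrowly, at 58.9 against 58.7 CPM in corticotroph-like cells. It also includes Slc7a5, which led in endothelial-like cells at 46.2 CPM, against 16.5 CPM in gonadotroph-like cells. Since some of its markers were highest elsewhere, these 30 cells are not shown to be barrier endothelium. By the number of endothelial markers, the 56 cells just inside the class, with 3 of 12, had 1819 CPM of Kdr and 3085 CPM of Plvap, and 30 cells just outside it, with 2, had 511 and 1203 CPM.

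Across the 13 classes the endothelial receptors had nearly the same profile. Pearson's r of log2(CPM + 1) was 0.951 between Kdr and Flt1, 0.968 between Kdr and Tek, 0.982 between Flt1 and Tek, and 0.963 between Plvap and Flt1. Such values rest on 1 class that stands far above 12 others, and all points share the same libraries. Among 14101 candidate genes the profile closest to that of Tek was Exoc3l2 (r = 0.990), followed by Unc45b, Adgrl4, Fgd5 and Tie1. For Plvap it was Erg (0.971), an endothelial ETS transcription factor, then Nr5a2, Flt1, Unc45b and Gm32688. Kdr was closest to Tek, Unc45b, Ntf3, Adcy4 and Tfpi2, and Flt1 to Tek, Unc45b, Nr5a2, Gm32688 and Ntf3. The other members had looser neighbours: Nrp1 was closest to Acot9 (0.924), then Rsu1, Ifit2, Fhod1 and Dram1, and Angpt2 to mt-Tc (0.934), then Micall2, Rflna, Enpep and Gm4468. Pgf was closest to Kirrel (0.960), then Gstt3, Mdk, Ccdc80 and Synm. Angpt1 was closest to its overlapping antisense gene Gm17473 (0.926), with Frem1, Slc17a8, Olfml2b and Cilp after it, and Vegfa to Ndufa4 (0.884), Lman2, Gpx4, Isyna1 and Trap1.

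Promoter windows of 300 bases, from 250 before to 50 after a transcription start, were taken from RefSeq (build GRCm38.p6) for 6 of the 9 genes. Vegfa has 2 starts in that table, of which the more upstream was taken. Windows are shown for the receptor genes whose profiles ran together, and for Vegfa, whose profile did not. Capitals mark the ETS core GGAA, or TTCC where it is on the other strand, the letters bound by ETS factors such as Erg. Each is written 5′ to 3′ along the gene, and the windows are chr5:75978406-75978705 for Kdr, chr5:147725962-147726261 for Flt1 and chr17:46032328-46032627 for Vegfa, all on the minus strand, and chr4:94739039-94739338 on the plus strand for Tek.
Kdr: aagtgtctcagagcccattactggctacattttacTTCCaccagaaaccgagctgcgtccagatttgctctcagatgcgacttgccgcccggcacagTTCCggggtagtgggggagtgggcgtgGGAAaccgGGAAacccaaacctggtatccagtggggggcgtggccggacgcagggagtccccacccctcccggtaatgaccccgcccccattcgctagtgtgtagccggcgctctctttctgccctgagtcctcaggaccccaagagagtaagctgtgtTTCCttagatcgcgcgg
Flt1: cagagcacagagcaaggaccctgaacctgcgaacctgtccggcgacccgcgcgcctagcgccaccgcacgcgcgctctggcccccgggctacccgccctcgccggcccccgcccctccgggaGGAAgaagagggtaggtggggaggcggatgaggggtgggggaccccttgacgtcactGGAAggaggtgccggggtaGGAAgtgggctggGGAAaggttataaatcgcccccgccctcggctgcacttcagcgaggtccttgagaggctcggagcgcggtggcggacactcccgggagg
Tek: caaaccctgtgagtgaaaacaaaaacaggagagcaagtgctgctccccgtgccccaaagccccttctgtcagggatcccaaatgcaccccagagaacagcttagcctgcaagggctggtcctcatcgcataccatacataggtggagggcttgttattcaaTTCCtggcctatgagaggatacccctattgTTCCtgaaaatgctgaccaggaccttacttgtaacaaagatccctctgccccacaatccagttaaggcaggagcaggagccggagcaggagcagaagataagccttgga
Vegfa: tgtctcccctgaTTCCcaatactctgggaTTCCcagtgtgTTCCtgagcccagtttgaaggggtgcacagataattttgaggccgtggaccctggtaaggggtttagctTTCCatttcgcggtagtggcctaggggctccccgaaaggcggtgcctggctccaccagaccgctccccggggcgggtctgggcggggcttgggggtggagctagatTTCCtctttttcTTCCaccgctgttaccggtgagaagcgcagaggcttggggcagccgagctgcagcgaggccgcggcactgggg
The core occurred 5 times in the Kdr window, 4 times in Flt1, 2 times in Tek and 6 times in Vegfa. It is found in 96.0% of all 32851 windows of this length, with a median of 3 matches, so its presence does not set the receptor genes apart. The HIF core, ACGTG or GCGTG with the other-strand forms CACGT and CACGC, had 2 matches in Kdr, 1 in Flt1 and none in Tek or Vegfa, and 43.8% of all windows hold one. No HIF core match shared a letter with an ETS core match in these 4 windows. A match describes letters in a window and is no evidence of binding.

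The other VEGF family genes placed a further ligand in gonadotroph-like cells. Vegfd, a ligand of the lymphatic receptor FLT4, was 156 CPM there, with 128, 159, 159 and 157 CPM in sets 1 to 4, against 32.2 CPM in thyrotroph-like cells. Flt4 itself was 241 CPM in endothelial-like cells, against 4.56 CPM in macrophage or microglia-like cells. Nrp2, a co-receptor, was 617 CPM in endothelial-like and 173 CPM in gonadotroph-like cells, and Vegfc was 48.3 CPM in endothelial-like and 19.1 CPM in the stem or folliculostellate-like class. Of the 5 genes of this list, 4 led in 1 class in every set, beside 41.0% of all genes tested. The median lead over the next class was 1.83 log2 units, against 0.35 over all genes tested.

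Of 6 tested among the 7 genes of the angiopoietin and TIE list, 2 led in endothelial-like and 4 in fibroblast-like cells in every set. Over all genes tested, 5.24% led in endothelial-like and 3.63% in fibroblast-like cells. The median lead was 3.94 log2 units, against 0.35 over all genes tested. Tie1, the partner receptor of TEK, was 277 CPM in endothelial-like cells, with the T or NK cell-like class next at 2.25 CPM, and Ptprb, a phosphatase that acts on TEK, 613 against 13.02 CPM in B cell-like cells. Fibroblast-like cells had 120.5 CPM of Svep1, an extracellular matrix protein, against 5.59 CPM in gonadotroph-like cells, and 94.4 CPM of Angptl1 against 6.51 CPM in B cell-like cells. Angptl2 was 43.2 CPM there with the somatotroph-like class next at 5.85 CPM. The next-class values of Tie1, Ptprb and Angptl1 rest on fewer than 3 UMIs. In these classes 3 UMIs stand for 3.37 CPM (T or NK cell-like) and 19.5 CPM (B cell-like), so which class came next is not settled.

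Other angiogenic ligands were spread over many classes, and their receptors were mostly endothelial. Of 35 ligand genes tested among 37 listed, 21 led in 1 class in every set: 6 in endothelial-like, 5 in stem or folliculostellate-like, 4 in fibroblast-like, and 3 each in pituicyte-like and melanotroph-like cells. Shares over all genes tested were 5.24% for endothelial-like, 4.52% for stem or folliculostellate-like, 3.63% for fibroblast-like, 4.93% for pituicyte-like and 1.72% for melanotroph-like cells. Over all genes tested 41.0% led in 1 class, and with 3.54% leading in gonadotroph-like and 1.36% in lactotroph-like cells, the count of 0 of these ligands there is near the background. The median lead was 0.63 log2 units. Endothelial-like cells had 144 CPM of the Notch ligand Dll4 against 3.68 CPM in pituicyte-like cells, and 176 CPM of the ephrin gene Efna1 against 26.6 CPM in stem or folliculostellate-like cells. They also led in Jag2 at 85.2 CPM and in the platelet-derived growth factor gene Pdgfa at 112 CPM. Stem or folliculostellate-like cells had 989 CPM of Thbs1, an inhibitor of angiogenesis, against 144 CPM in pituicyte-like cells, and led in the guidance factor gene Slit2 at 198 CPM and in Bmp6 at 98.4 CPM. Fibroblast-like cells had 768 CPM of the chemokine gene Cxcl12 against 158 CPM in stem or folliculostellate-like cells, and led in the endothelin gene Edn3 at 332 CPM and in Bmp4 at 172 CPM. Pituicyte-like cells led in Fgf1 at 223 CPM, in the adrenomedullin gene Adm at 199 CPM and in Wnt5a at 152 CPM. Melanotroph-like cells led in Sema3e at 76.7 CPM and in Wnt4 at 46.0 CPM. Esm1, often used as a marker of endothelial tip cells, also led in melanotroph-like cells, at 385 CPM, from 309 to 463 CPM over the sets, against 63.0 CPM in endothelial-like cells. Among the 29 receptor genes, 24 led in 1 class in every set and 16 of them did so in endothelial-like cells. The shares over all genes tested were 41.0% and 5.24%. The median lead of the receptor genes was 0.86 log2 units. Adgrl4, an adhesion receptor of endothelial cells, was 835 CPM there against 2.70 CPM in fibroblast-like cells. Robo4 was 324 CPM, next to 1.12 CPM in the T or NK cell-like class, and the apelin receptor gene Aplnr 229.6 against 0.899 CPM in fibroblast-like cells. The next class had 1 to 3 UMIs of each of these genes. Plxnd1, a semaphorin receptor, followed at 461 against 29.7 CPM in fibroblast-like cells. Stem or folliculostellate-like cells led in Met at 70.2 CPM and in the endothelin receptor gene Ednrb at 165 CPM, and fibroblast-like cells led in Ednra at 31.5 CPM and in Robo1 at 78.2 CPM. Pituicyte-like cells led in the fibroblast growth factor receptor gene Fgfr1 at 587 CPM and in Plxna1 at 25.8 CPM, and B cell-like cells in Cxcr4 at 293 CPM from 45 UMIs and S1pr1 at 279.9 CPM from 43 UMIs.

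Genes of the hypoxia response, which can raise Vegfa, were spread over many classes with small leads. Of 17 tested among the 20 of the list, 8 led in 1 class in every set, beside 41.0% of all genes tested. None of the 8 did so in pituicyte-like or gonadotroph-like cells, where 4.93% and 3.54% of all genes tested led, so a count of 0 among 17 genes is near that background. A further 5, among them Hif1a, Ldha and Slc2a1, were highest in the pooled pituicyte-like class but not in every set, and were picked out after their values were seen. The next classes were close for these 3. Hif1a was 162 against 159 CPM in stem or folliculostellate-like, Ldha 274 against 241 CPM in endothelial-like and Slc2a1 58.9 against 58.7 CPM in corticotroph-like cells. The list's median lead was 0.29 log2 units, against 0.35 over all genes. Epas1, the gene of HIF-2 alpha, was 369 CPM in endothelial-like against 159 CPM in stem or folliculostellate-like cells, and P4ha1, a collagen hydroxylase, was 309.8 CPM in stem or folliculostellate-like against 136 CPM in fibroblast-like cells. Ndrg1 led in endothelial-like cells at 308 CPM, and Egln2 in stem or folliculostellate-like cells at 178 CPM. Corticotroph-like cells led in Bnip3 at 112 CPM and Hif3a at 12.2 CPM, melanotroph-like cells in Ankrd37 at 49.5 CPM and fibroblast-like cells in Egln3 at 29.7 CPM. Of 12 genes listed for fenestrae and caveolae, among them the barrier markers Mfsd2a and Slc7a5, 11 led in 1 class in every set. Of these, 7 led in endothelial-like cells. The shares over all genes tested were 41.0% and 5.24%. The median lead of this list was 1.9598 log2 units. Ehd4, a membrane-shaping ATPase, was 1139 CPM in endothelial-like against 283 CPM in macrophage or microglia-like cells, and Gpihbp1, the capillary anchor of lipoprotein lipase, was 126 CPM from 300 UMIs against 0.170 CPM from 3 UMIs in corticotroph-like cells. The caveola coat genes Cavin2 and Cavin3 were 535 and 545 CPM in endothelial-like cells, against 126 and 137 CPM in fibroblast-like cells. Cav1, their scaffold, led in fibroblast-like cells at 98.0 CPM, as did the water channel gene Aqp1 at 39.6 CPM, and Cd36 led in macrophage or microglia-like cells at 33.0 CPM. Mfsd2a, a lipid transporter of the blood-brain barrier, led in pituicyte-like cells at 57.9 CPM and not in endothelial-like cells. Slc7a5, the other barrier marker of this list, did lead in endothelial-like cells, at 46.2 CPM against 16.5 CPM in gonadotroph-like cells.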

How the data were processed

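UMI counts of single cells were analysed as the authors deposited them, in 1 matrix of whole counts per gene and barcode for all 4 libraries. Per the file headers, Cell Ranger 8.0.1 produced it. The tools named per the submitters' processing notes are Cell Ranger and Seurat. For the genome build and the strand setting, the value is not given in the sources used here. Barcode sets 1 to 4 were not tied to libraries, so all cells were handled as 1 pooled sample, and the HFD against ND test could not be run.

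Barcodes with at least 500 UMIs, 250 genes and at most 25% mitochondrial UMIs were kept (39839 of 40406). Scrublet in scanpy 1.11.5 was run in each set. Its automatic threshold marked 2, 915, 736 and 0 barcodes in sets 1 to 4, so the 8% with the highest scores in each set were removed instead (3188). Hormone classes needed shares of UMIs of at least 15% Gh, 3% Prl, 1% Pomc, 0.1% Fshb and Lhb together, or 0.1% Tshb. Cells over the Pomc threshold with 2 of Pcsk2, Pax7 and Oacyl were called melanotroph-like. Other classes needed UMIs of 3 markers (4 for stem or folliculostellate and mural cells) and no second list close to the first. These thresholds were set after seeing the data. Cells meeting several classes, and the 3662 meeting none, were left out of the classes. The members and lists were chosen with earlier results of these data known.

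A gene was tested if it had at least 100 UMIs in all and 20 in its leading class. It led in a class when its CPM was highest there in every set with at least 20 cells of that class. Named are the 9 genes, the 5 most like each by Pearson's r of log2(CPM + 1), and of each list up to 4 endothelial-like and 3 other leading genes per class by fold over the next class. Slc7a5 is named as well, as a marker of the barrier list. Alternatives kept doublets, used a stricter filter, Leiden clusters at resolution 1.0 (2000 variable genes without the 9 members, 30 components, 15 neighbours), library sizes without the 7 hormone genes, thinning to 1000 UMIs, or other gates, and each set was left out in turn. Scripts ran on Python 3.11.15 with igraph 0.11.9, pandas 2.3.3, scipy 1.17.1 and numpy 2.4.6.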

Additional observations from a re-analysis of the deposited data

Results flagged for a closer look

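Angpt1 was also found in cells outside the 13 classes. The 3662 cells that met no class had 152 CPM of Angpt1 (interval 146 to 159), with 199, 136, 130.5 and 139 CPM in sets 1 to 4, against 2.98 CPM in somatotroph-like cells. By clusters, 965 of these cells lay in lactotroph-like clusters. With hormone genes left out of the library sizes, Angpt1 was 387 CPM in those with 1% to 2% of UMIs from Prl, 334 CPM at 2% to 3% and 105 CPM (99.0 to 111) below 1%, against 390.1 CPM in lactotroph-like cells with 3% to 10%. Cells of no class had a median of 2778 UMIs, against 7074 in lactotroph-like cells.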

How the results depend on the processing

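The class with the highest level of each of the 9 genes was the same under all settings run (13 for each gene, 12 for the ratio of Tek, whose next class had no UMI after thinning), and no ratio to the next class reversed. Levels in the leading class moved beyond their counting interval as follows. With doublets kept, Kdr was 2011, Flt1 1129, Angpt1 282 and Plvap 3601 CPM. With Leiden clusters, Vegfa was 244, Kdr 1215, Flt1 654, Nrp1 482, Pgf 80.3, Angpt1 295, Angpt2 38.2, Tek 195 and Plvap 2057 CPM. With hormone genes left out of the library sizes, Angpt1 was 377 and Plvap 3883 CPM. After thinning, Kdr was 2186 and Angpt1 304 CPM. With higher hormone shares, Kdr was 1973, Flt1 1115, Nrp1 696, Angpt1 280.2 and Plvap 3548 CPM. Leaving out each set in turn gave 246 to 336 CPM for Vegfa, 2051 to 2148 for Kdr, 1160.1 to 1264 for Flt1, 738 to 746 for Nrp1, 72.5 to 123 for Pgf, 279.7 to 293 for Angpt1, 57.4 to 67.4 for Angpt2, 313 to 351 for Tek and 3651 to 3890.3 CPM for Plvap. The count of genes led by 1 class in every set was 8, and 7 to 8 under the alternatives. It was 7 with hormone genes left out of the library sizes, where Vegfa led in gonadotroph-like cells in set 4. Leaving out set 1, 3 or 4 leaves too few sets with pituicyte-like cells for Vegfa to count. The count was then 7 without set 3 or 4. Without set 1 it stayed at 8, but with Pgf in place of Vegfa, since Pgf led in fibroblast-like cells in every set left. The cause of these shifts was not tested, except that the cluster classes also hold cells with markers of a further type. No paired analysis was possible because the libraries of the barcodes are unknown. Depth limits the classes with few UMIs, such as the 98 B cell-like cells, where 3 counts stand for 19.5 CPM, and the 12 mural cells.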
